A study of Mus musculus with 10 samples.

Results

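The genes of the mitochondrial ribosomal proteins were compared between the left ventricle (LV) of mice after neonatal ascending aorta constriction (nAAC) and the LV of sham mice. Members were all genes whose symbol is Mrpl or Mrps followed by a number and, in some, a letter. There were 78 of them among the 55401 genes of the series, 49 with an Mrpl and 29 with an Mrps symbol. All 78 had a mean FPKM of at least 1 over the 10 libraries, which 11867 genes reached in all, so every member was tested. The unit, FPKM, divides a gene's fragments by its transcript length and by the size of the library, so levels of different genes can be set side by side. The 5 nAAC mice had their ascending aorta narrowed surgically as newborns, and the 5 sham mice were operated on without the constriction. All 10 were labelled WT, were taken at 4 weeks of age, and gave 1 library each from total RNA of the whole LV. The study describes its animals as C57BL/6 mice of both sexes, placed in the groups without regard to sex. An nAAC heart is loaded from birth, so constriction and postnatal growth overlap in time in this model.

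Mitochondria keep a small genome of their own, and the few proteins it encodes are subunits of the respiratory chain and ATP synthase. A dedicated ribosome makes them. Its large subunit joins amino acids and its small subunit reads the mRNA. Its RNAs come from the mitochondrial genome, while all of its proteins are encoded in the nucleus, made in the cytosol and imported. Some of these proteins have counterparts in bacterial ribosomes and others exist only in mitochondria. Heart muscle depends on oxidative phosphorylation, and inherited defects of several of these proteins cause cardiomyopathy in infancy. By structure, 51 of the 78 genes encode large subunit proteins, including Mrps18a and Mrps30 despite their symbols, and 26 encode small subunit proteins. Mrps36 carries the family's name but is now known as a component of the ketoglutarate dehydrogenase complex, and it was kept because the rule is by symbol.

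One library stood apart in these genes. Sham replicate 4 had the highest value of all 10 mice in 62 of the 78 members (79.5%), against 18.2% of all genes tested. It exceeded the mean of the other 4 sham mice by a median of 0.70 on the log2 scale over the members and by 0.07 over all genes. At the other end, nAAC replicate 1 was the lowest of the nAAC mice in 60 members (76.9%), against 38.9% of all genes. Values without sham replicate 4 are therefore given beside results that change with it. The estimated depth of the libraries, from 4.86 to 6.82 gigabases in nAAC and from 5.06 to 5.24 in sham mice, was highest in nAAC replicate 1 and, in sham replicate 4, was within the sham range. Transcripts of the mitochondrial genome took 32.9% to 39.9% of the TPM (the FPKM rescaled to the same sum in each library) in nAAC mice. In sham mice they took 33.7% to 49.8%, the lowest being replicate 4. The other sham mice were not alike either. Sham replicates 1 to 3 had 46.5%, 49.8% and 48.7%, and replicate 5 had 38.3%, within the nAAC range. The summed FPKM of the members was 1811, 1716 and 1814 in sham replicates 1 to 3 and 2266 in replicate 5. All 12 cardiomyocyte markers listed were present in every library, from Ttn (titin), at no less than 7.39 FPKM, to myosin and troponin genes such as Tnnt2, at no less than 2185 FPKM.

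**Figure D1:**
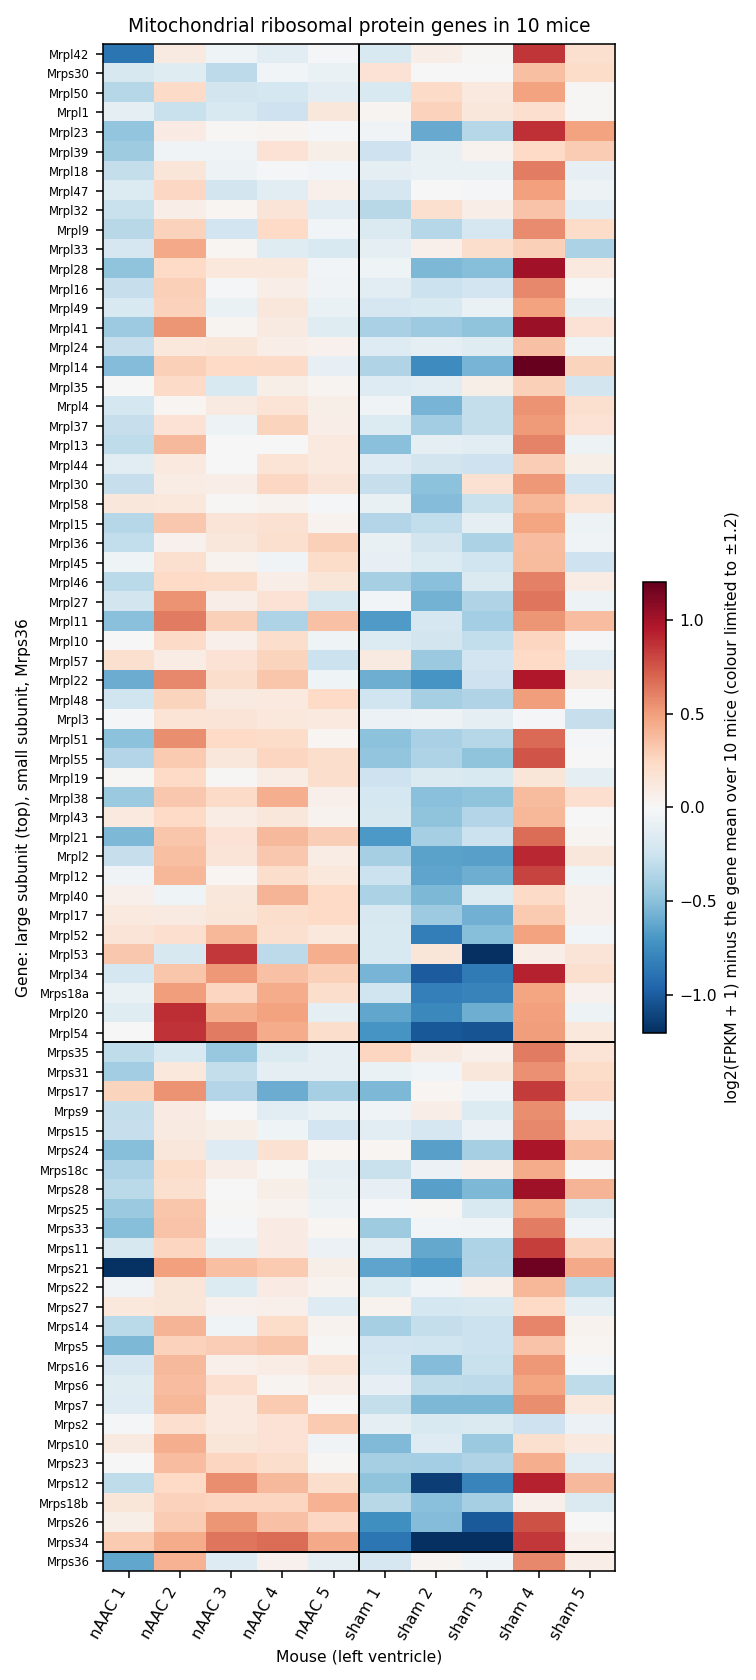
Heat map of the 78 genes (vertical axis, large subunit, then small subunit, then Mrps36, each ordered by difference between groups) in the 10 mice (horizontal axis). Colour is log2(FPKM + 1) minus the gene's mean over the mice, red above and blue below it. The column of sham replicate 4 is red for nearly all genes, and that of nAAC replicate 1 is blue for most.

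The family as a whole moved little. Of the 78 genes, 4 were higher in nAAC LV at an adjusted p below 0.05 (Mrps18b, Mrps2, Mrpl54 and Mrps34) and 1 was lower (Mrps35), by limma on log2(FPKM + 1) with Benjamini-Hochberg adjustment over all genes tested. The same test called 27.1% of all genes higher and 4.6% lower, so the members' 5.13% and 1.28% lay under both backgrounds. At an unadjusted p below 0.05, 8 members were higher and 4 lower. The shares of all genes at that cut are not given here. They are at least 27.1% higher and 4.6% lower, since every gene past the adjusted cut is past the unadjusted one. With the added demand of an absolute log2 fold change (FC) above 1, only Mrps34 remained, where 5.01% of all genes were higher and 0.893% lower. The median log2 FC was 0.12 over the members and 0.22 over all genes tested. Against 0, 55 members were above and 23 below, whereas 23 were above the median of all genes and 55 below it. Absolute log2 FCs were under 0.5 in 71 of the 78. Groups that did not overlap at all were found in 5 members. All nAAC mice were above all sham mice in Mrps18b, Mrps2 and Mrpl3, an order found in 18.9% of all genes, and below them in Mrps35 and Mrps30, an order found in 3.46%. Without sham replicate 4, 22 members (28.2%) were higher and 1 (1.28%) lower, beside 33.2% and 5.17% of all genes. The median log2 FC was then 0.26 over the members and 0.24 over all genes.

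**Figure D2:**
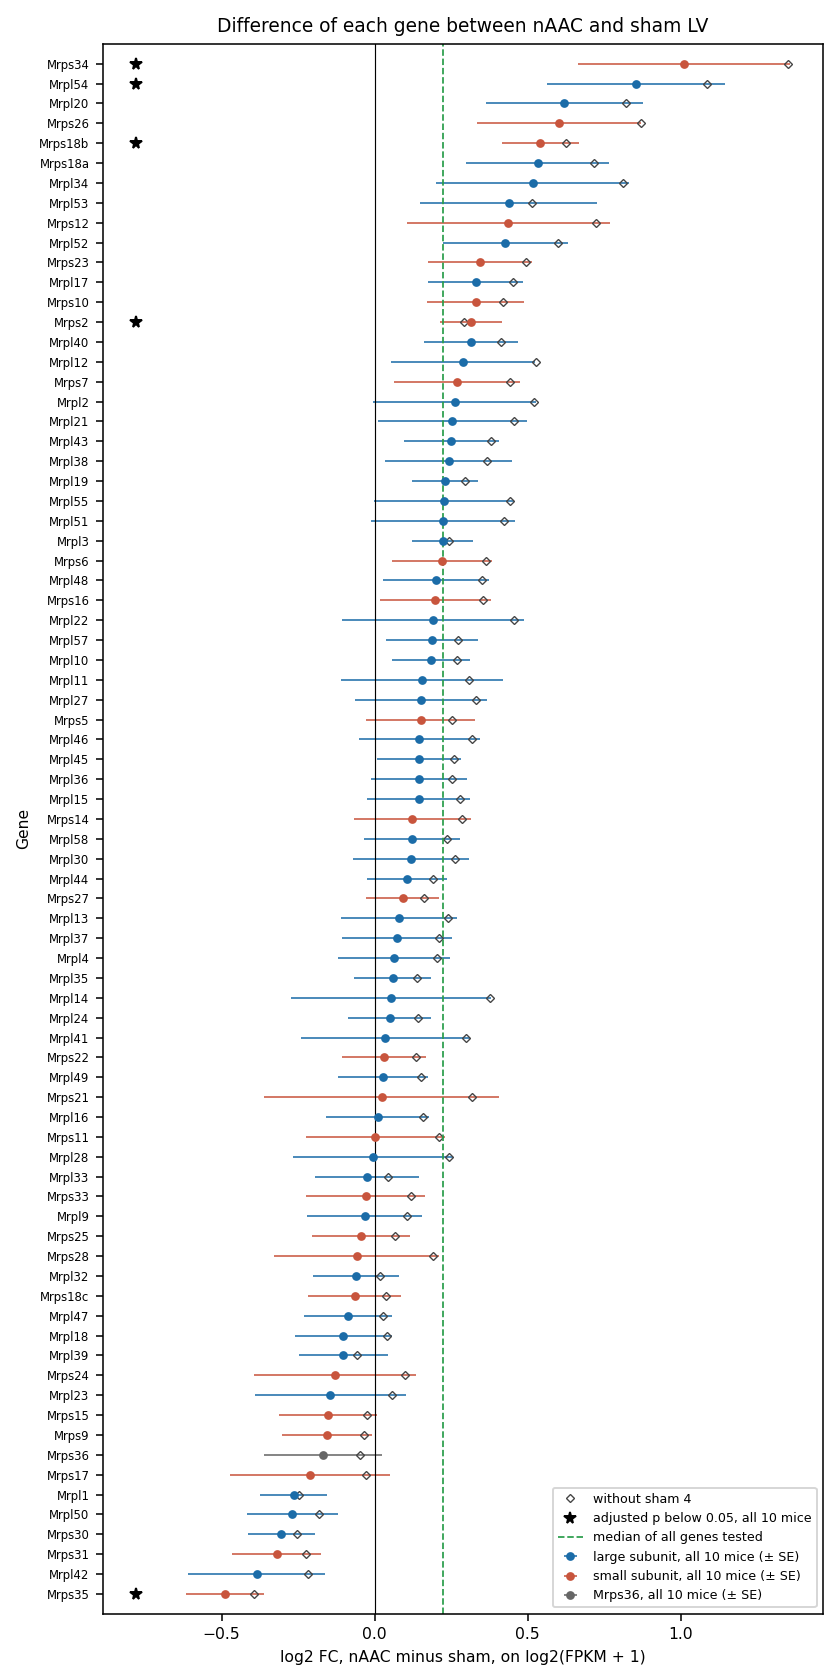
Log2 FC of each of the 78 genes (horizontal axis, nAAC minus sham, with the SE as bars) ordered by size, coloured by subunit. Diamonds give the value without sham replicate 4, stars mark the 5 genes with an adjusted p below 0.05 and the dashed line is the median of all genes at 0.22. The points crowd around 0 and that line, and most diamonds lie to the right of their points.

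Mrps18b encodes a small subunit protein classed as mitochondria-specific, and it had the smallest adjusted p of the family. Its FPKM was 18.9, 20.8, 20.5, 20.5 and 23.1 in nAAC replicates 1 to 5 and 13.3, 11.7, 12.6, 17.8 and 15.0 in sham replicates 1 to 5. Every nAAC mouse was above every sham mouse, including sham replicate 4, the highest of the sham mice. The log2 FC was 0.54 ± 0.12 (SE), with a limma adjusted p of 0.0054 and an exact permutation p (two-sided) of 0.0079, the smallest that 5 against 5 mice allow. After median-ratio scaling, which sets the median gene equal between libraries, the log2 FC was 0.28 with an adjusted p of 0.078, and with Xist, transcribed from the inactive X chromosome, as a covariate it was 0.45 with an adjusted p of 0.061.

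Mrps2, a small subunit protein with a bacterial counterpart, had the narrowest spread among the genes called higher. FPKM was 10.4, 12.3, 11.6, 12.1 and 13.4 in the nAAC mice and 9.70, 9.21, 9.26, 8.71 and 9.99 in the sham mice. The groups did not overlap, and sham replicate 4 was here the lowest of the sham mice rather than the highest. The log2 FC was 0.32 ± 0.10 (SE, limma adjusted p = 0.030, exact permutation p = 0.0079). The call was lost when any 1 of nAAC replicates 2 to 5 or sham replicates 1 to 3 was left out, with adjusted p values up to 0.090, and after median-ratio scaling the log2 FC was 0.06 (adjusted p = 0.72).

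Mrps34, a mitochondria-specific protein needed for a stable small subunit, had the largest log2 FC. Its FPKM was 36.9, 40.7, 46.8, 47.4 and 40.9 in the nAAC mice and 15.7, 10.9, 12.2, 54.0 and 30.9 in the sham mice. The nAAC values lay close together, whereas 3 sham mice were low, replicate 5 was in between and replicate 4 was above every nAAC mouse. The log2 FC was 1.01 ± 0.35 (SE, limma adjusted p = 0.041, exact permutation p = 0.071). Without sham replicate 4 it was 1.35 (adjusted p = 0.0011) and the groups separated. With Xist as a covariate it was 0.55 (adjusted p = 0.35), and with trends in GC content and transcript length removed 0.58 (adjusted p = 0.075). Sham replicates 1 to 3, the low mice, were also the sham mice with Xist under 1 FPKM. In the nAAC group, replicate 2 had Xist under 1 FPKM too, and its Mrps34 value was 40.7 FPKM. Leaving out any 1 of the nAAC mice or of sham replicates 1 to 3 gave adjusted p values between 0.053 and 0.0995. The gene overlaps Mapk8ip3 on the opposite strand, at a mean of 10.5 FPKM, and Nme3 on the same strand, at 1.92 FPKM, and strand use in counting was not stated, so reads of these genes could not be told apart with certainty.

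Mrpl54 belongs to the mitochondria-specific part of the large subunit and was the only large subunit gene called. The nAAC mice had 32.0, 59.3, 49.98, 44.0 and 37.3 FPKM and the sham mice 19.3, 15.4, 15.1, 45.8 and 35.1. As in Mrps34, sham replicates 1 to 3 were low and replicates 4 and 5 lay among the nAAC values. The log2 FC was 0.85 ± 0.29 (SE, limma adjusted p = 0.039, exact permutation p = 0.063), and 1.09 without sham replicate 4 (adjusted p = 0.0047). The call was lost without any 1 of nAAC replicates 2 to 5 or sham replicates 1 to 3, with adjusted p values up to 0.096, and with Xist as a covariate the log2 FC was 0.66 (adjusted p = 0.23).

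Mrps35, another mitochondria-specific small subunit protein, was the only member called lower. FPKM was 10.1, 11.1, 9.01, 11.1 and 11.7 in the nAAC mice and 15.4, 13.8, 13.3, 20.1 and 14.4 in the sham mice. All nAAC mice were below all sham mice, and sham replicate 4 was the highest. The log2 FC was -0.49 ± 0.13 (SE, limma adjusted p = 0.012, exact permutation p = 0.0079), -0.39 without sham replicate 4 (adjusted p = 0.011) and -0.75 after median-ratio scaling (adjusted p = 0.00049). Of 21 alternative settings, 20 kept this call. Mrps30, a large subunit protein, had the same order of groups, with 7.97 to 9.89 FPKM in nAAC and 10.1 to 13.3 in sham mice, but its adjusted p of 0.0503 missed the threshold (log2 FC -0.31 ± 0.11, limma).

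**Figure D3:**
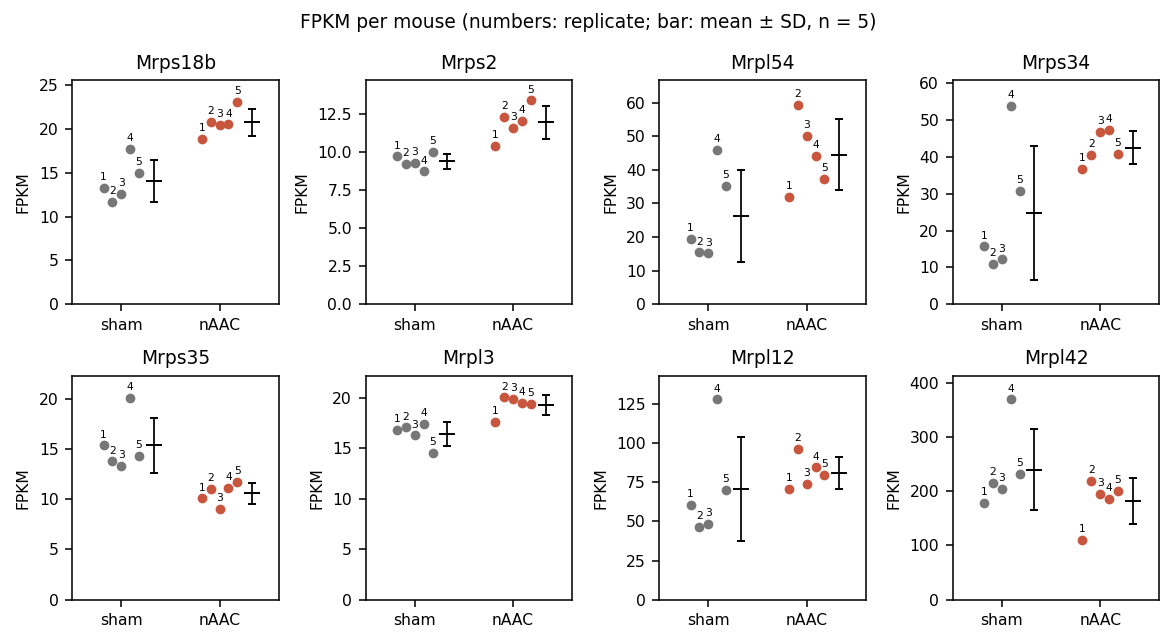
FPKM (vertical axis, from 0) of 8 of the genes in each mouse, sham in grey and nAAC in red, numbered by replicate, with mean ± SD (n = 5 per group). The groups are separate in Mrps18b, Mrps2, Mrps35 and Mrpl3, while sham replicate 4 reaches or exceeds nAAC values in Mrpl54, Mrps34, Mrpl12 and Mrpl42.

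The 3 paralogues of bacterial protein S18 differed in their values. Mrps18c was classed with a bacterial counterpart, and the others as mitochondria-specific despite this shared ancestor. Mrps18a, in the large subunit, had 32.3 to 48.9 FPKM in nAAC mice and 19.0 to 48.0 in sham mice, with a log2 FC of 0.53 ± 0.23 (SE, limma adjusted p = 0.097). Its log2 FC was 0.72 without sham replicate 4, with an adjusted p of 0.012. Mrps18c, the paralogue closest to the bacterial protein in the small subunit, had 16.8 to 25.6 FPKM in nAAC and 18.04 to 30.2 in sham mice, with a log2 FC of -0.07 ± 0.15 (limma adjusted p = 0.76), which was 0.04 without sham replicate 4. Of the 3, only Mrps18b passed the test on all 10 mice, and the differences among the paralogues were not themselves tested. Their promoters are shown because these genes share an ancestor and a role but had different values in the same mice, and that of Mrps2 because it too was called higher with separate groups. The sequences run 5′ to 3′ on the gene's strand and end at the RefSeq start of the gene, or before the gene start in the deposited tables where that came first (GRCm38.p6, RefSeq). Capitals mark matches, on either strand, to any of the motifs searched, within the printed stretch only.
Mrps18a, chr17:46110754-46110985, plus strand: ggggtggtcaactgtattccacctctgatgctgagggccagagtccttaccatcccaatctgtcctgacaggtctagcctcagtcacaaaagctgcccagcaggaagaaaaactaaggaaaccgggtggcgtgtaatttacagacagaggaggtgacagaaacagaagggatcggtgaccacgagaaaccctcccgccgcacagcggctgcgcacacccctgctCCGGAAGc
Mrps18b, chr17:35916441-35916690, minus strand: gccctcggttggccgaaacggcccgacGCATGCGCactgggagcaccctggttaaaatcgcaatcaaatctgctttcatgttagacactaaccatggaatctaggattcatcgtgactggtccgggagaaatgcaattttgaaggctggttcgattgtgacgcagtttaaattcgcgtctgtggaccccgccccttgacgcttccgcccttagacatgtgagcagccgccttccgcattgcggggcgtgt
Mrps18c, chr5:100798509-100798626, plus strand: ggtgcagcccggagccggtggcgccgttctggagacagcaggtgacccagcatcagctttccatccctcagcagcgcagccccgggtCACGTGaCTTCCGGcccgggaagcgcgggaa
Mrps2, chr2:28467816-28468065, plus strand: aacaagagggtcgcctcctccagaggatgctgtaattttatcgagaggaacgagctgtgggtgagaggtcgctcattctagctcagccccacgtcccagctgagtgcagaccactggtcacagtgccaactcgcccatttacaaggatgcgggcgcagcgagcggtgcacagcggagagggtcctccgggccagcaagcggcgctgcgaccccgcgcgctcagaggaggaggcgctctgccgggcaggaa

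The motifs searched were CCGGAAG (ETS family factors such as GABP), GCATGCGC (NRF1), AAGATGGC (YY1), TCAAGGTCA (estrogen-related receptors) and CACGTG (the E-box, bound by Myc among others). Each was sought on both strands of windows from 250 bases before to 50 bases after the RefSeq start, and none of these words contains another. Of the members, 69 had 1 or more windows, 75 windows in all. Those without a window were Mrpl13, Mrpl15, Mrpl19, Mrpl38, Mrpl4, Mrpl54, Mrps28, Mrps34 and Mrps35. CCGGAAG was in 26 of the 75 windows (34.7%), against 8.86% of all 32851 windows and 17.7% of the windows of genes tested. AAGATGGC was in 12 (16.0%), against 2.75% and 4.54%, and GCATGCGC in 8 (10.7%), against 2.71% and 5.17%. CACGTG was in 7 (9.33%), against 7.15% and 10.03%, and TCAAGGTCA was in 0, against 0.423% and 0.257%. None of the 5 words was in 33 of the members' windows, that of Mrps2 among them. Mrps18b is the member printed here with an NRF1 word, which begins 223 bases before the start. Past the end of the printed stretches, the windows also held CCGGAAG in Mrps18b and AAGATGGC in Mrps18a. CCGGAAG was thus in the window of each S18 paralogue. These are matches of letters, described without a test.

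The genes of these factors were themselves measured. Of 11 regulators listed, Myc and Esrrb (an estrogen-related receptor) were higher and 0 lower, beside 27.1% and 4.6% of all genes. Myc had a mean of 2.52 ± 0.81 FPKM in nAAC and 0.89 ± 0.49 in sham mice (SD, n = 5 each) and a log2 FC of 0.91 (limma adjusted p = 0.0027). Esrrb had 6.004 ± 0.28 and 3.97 ± 0.81 FPKM and a log2 FC of 0.51 (limma adjusted p = 0.0071). All nAAC mice were above all sham mice in both, an order found in 18.9% of all genes. Nrf1 (log2 FC 0.16), Gabpa (-0.14) and Yy1 (-0.0016) had limma adjusted p values between 0.27 and 0.99. Ppargc1a, a coactivator known for driving mitochondrial biogenesis, had 8.82 ± 1.26 FPKM in nAAC and 11.4 ± 2.72 in sham mice (log2 FC -0.32, limma adjusted p = 0.16). On the 9 mice without sham replicate 4, Myc and Esrrb were again higher and Ppargc1a was lower (log2 FC -0.47, limma adjusted p = 0.011). That was 2 of 11 higher and 1 lower, beside 33.2% and 5.17% of all genes. After median-ratio scaling Myc was higher and Esrrb no longer passed (limma adjusted p = 0.094). Ppargc1a (log2 FC -0.57, limma adjusted p = 0.026) and Gabpa (log2 FC -0.39, limma adjusted p = 0.026) were lower. That was 1 of 11 higher and 2 lower, beside 13.2% and 12.1% of all genes.

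Mrpl3, Mrpl44 and Mrps22 are among the members in which inherited defects are linked to cardiomyopathy in infancy. None of these 3 passed the test. Mrpl3, a core large subunit protein, had 17.7, 20.1, 19.9, 19.5 and 19.4 FPKM in nAAC and 16.9, 17.1, 16.3, 17.5 and 14.5 in sham mice, and no nAAC mouse was below the highest sham mouse. Its log2 FC was 0.22 ± 0.10 (SE, limma adjusted p = 0.11), close to the median of all genes, and it was -0.04 after median-ratio scaling. Mrpl44 ranged from 19.96 to 24.9 FPKM in nAAC and from 18.4 to 27.4 in sham mice (log2 FC 0.10 ± 0.13, limma adjusted p = 0.56). Mrps22 ranged from 9.10 to 11.5 FPKM in nAAC and from 8.05 to 13.9 in sham mice (log2 FC 0.03 ± 0.14, limma adjusted p = 0.88). The groups overlapped in both, with sham replicate 4 the highest of all mice.

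Mrpl10, Mrpl11 and Mrpl12 build the stalk to which translation factors bind, and Mrpl45 holds the ribosome at the inner membrane. None of these 4 passed the test. Mrpl12 had 70.9 to 96.4 FPKM in nAAC mice, while the sham mice had 60.6, 46.7, 48.3, 128 and 70.1 FPKM, so that all but replicate 4 were below the nAAC range. Its log2 FC was 0.29 ± 0.24 (SE, limma adjusted p = 0.36), and 0.53 without sham replicate 4 (adjusted p = 0.014). Mrpl10 had 19.2 to 23.6 FPKM in nAAC and 16.0 to 24.0 in sham mice (log2 FC 0.18 ± 0.13). Mrpl11 ran from 7.51 to 17.5 FPKM in nAAC and from 6.53 to 16.5 in sham mice (log2 FC 0.15 ± 0.26). Mrpl45 had 15.0 to 18.3 FPKM in nAAC and 13.0 to 20.5 in sham mice (log2 FC 0.15 ± 0.14), and the groups separated once sham replicate 4 was left out.

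In level the family was graded rather than equal. Mean FPKM over the 10 mice had a median of 21.6 and ran from 7.75 at the 10th to 51.7 at the 90th percentile of the members, a 6.67-fold range. Large subunit genes had a median of 23.1 FPKM and small subunit genes 18.1. By comparison the median was 182 FPKM for cytosolic ribosomal proteins and 260 FPKM for the nuclear-encoded subunits of oxidative phosphorylation. The order of the members was nearly the same in both groups, with a Spearman correlation of 0.969 between the group means over the 78 genes, which share libraries. Mrpl42, a mitochondria-specific large subunit protein, was the highest, at 182 ± 42.2 FPKM in nAAC and 240 ± 75.0 in sham mice (SD, n = 5 each). It was 110 FPKM in nAAC replicate 1, against 186 to 220 in the other nAAC mice, and 370 in sham replicate 4, against 179 to 232 in the other sham mice. Its log2 FC of -0.38 ± 0.22 did not pass the test (limma adjusted p = 0.20), and without sham replicate 4 it was -0.22 (adjusted p = 0.37). Mrpl30 (122 ± 15.9 and 115 ± 34.1 FPKM) and Mrpl33 (115 ± 24.2 and 116 ± 20.8 FPKM), which both have bacterial counterparts in the large subunit, came next and lay within their spread of each other. Their log2 FCs were 0.12 and -0.03. At the low end were Mrpl19 (4.00 ± 0.37 and 3.27 ± 0.47 FPKM), Mrpl17 (4.67 ± 0.23 and 3.62 ± 1.18 FPKM) and Mrps25 (4.66 ± 1.06 and 4.83 ± 1.16 FPKM), with limma adjusted p values of 0.12, 0.12 and 0.85. Mrpl19 and Mrpl17 had log2 FCs of 0.23 and 0.33, and in each all nAAC mice were above the sham mice other than replicate 4. Without that mouse both passed the test, with log2 FCs of 0.29 (limma adjusted p = 0.029) and 0.45 (limma adjusted p = 0.016).

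By part of the ribosome, the shares called on all 10 mice were under the 27.1% higher and 4.6% lower of all genes in both subunits. In the large subunit 1 of 51 genes was called higher and 0 lower, with a median log2 FC of 0.14. In the small subunit 3 of 26 were higher and 1 lower, with a median of 0.06. Genes with a bacterial counterpart gave 1 higher of 46 and 0 lower, and mitochondria-specific genes 3 higher of 31 and 1 lower. Without sham replicate 4, 13 of the 51 large subunit genes (25.5%) and 9 of the 26 small subunit genes (34.6%) were higher, beside 33.2% of all genes, with medians of 0.27 and 0.23. Mrps36, outside the ribosome, had 28.5 to 59.6 FPKM in nAAC and 38.5 to 66.6 in sham mice (log2 FC -0.17, limma adjusted p = 0.52). The members that had the largest log2 FC without passing the test were Mrpl20 (0.62, adjusted p = 0.083) and Mrps26 (0.60, adjusted p = 0.10), both chosen here after their values were seen. In both, sham replicate 4 was the highest of the sham mice, and without it both passed the test, with log2 FCs of 0.82 (limma adjusted p = 0.012) and 0.87 (limma adjusted p = 0.0028).

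How many members were called depended on which mice entered and on the scaling. The count higher was 1 when any 1 of nAAC replicates 2 to 5 or sham replicates 1 to 3 was left out. Shares of all genes are not given for those fits. Without sham replicate 4, 22 members were higher and 1 lower, where 33.2% of all genes were higher and 5.17% lower. The 4 genes called higher and the 1 called lower on all 10 mice were among them. The median log2 FC of the members was then 0.26 against 0.24 for all genes, so the members no longer lay below the general shift. All nAAC mice were then above the remaining sham mice in 12 members and below them in 2, shares of 78 to be read beside 23.5% and 4.601% of all genes. After median-ratio scaling of all 10 mice, 0 members were higher and 9 lower, where 13.2% of all genes were higher and 12.1% lower. Those lower were Mrpl1, Mrpl39, Mrpl42, Mrpl50, Mrps15, Mrps30, Mrps31, Mrps35 and Mrps9. This scaling moved the median of all genes from 0.22 to 0.00 and that of the members from 0.12 to -0.14. With both changes together, chosen after seeing the data, 5 were higher (Mrpl20, Mrpl54, Mrps18b, Mrps26 and Mrps34). The 9 lower genes were those same 9. For this combined setting the shares of all genes are not given, so its counts have no background to be read against. The members' median was -0.018 there, and -0.015 once the median of all genes was subtracted. Mrps35 was lower on all 10 mice, without sham replicate 4, after median-ratio scaling and with both changes together. The summed FPKM of the 78 genes was 2279 ± 317 in nAAC and 2205 ± 711 in sham mice (SD, n = 5 each), and 1902 ± 247 in the 4 sham mice without replicate 4.

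Members also differed by the make-up of their transcripts. Their longest transcripts had a median of 1866 bases, against 3159 for all genes tested, and a GC content of 49.8%, as in all genes. Over the 78 members, log2 FC had a Spearman correlation of 0.435 with GC content and -0.189 with length. Leaving out sham replicate 4 gave 0.534 and -0.338. Once each library's trend with GC content and length had been removed by loess over all genes, they were 0.077 and -0.058. In that setting 2 members were called higher (Mrpl54 and Mrps18b) and 10 lower. These 2.56% and 12.8% of the members lay under the 14.2% higher and 15.9% lower of all genes. The excess of sham replicate 4 over the other sham mice had a correlation of -0.427 with length over the members and of -0.659 over all genes. These correlations run across genes measured in the same libraries and are descriptions only, and the part of GC content and length in the differences between groups was not tested. Mrps34 and Mrpl54, with the largest log2 FCs, had GC contents of 59.9% and 60.4%, the highest of the family, and Mrps35 had 44.3%.

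**Figure D4:**
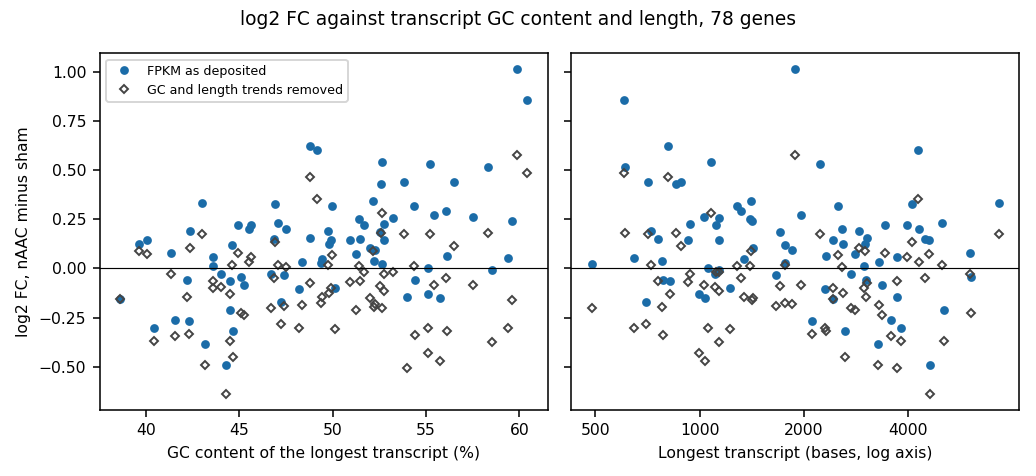
Log2 FC of the 78 genes (vertical axis, nAAC minus sham) against GC content in percent (left) and length in bases (right, log axis) of the longest transcript. Filled points use the FPKM as deposited and diamonds the values after removing each library's trend with GC content and length, which leaves Spearman correlations of 0.077 with GC content and -0.058 with length.

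Other genes of translation in mitochondria gave 0 or 1 call in each direction per list on all 10 mice, beside 27.1% higher and 4.6% lower over all genes. Of 5 mitochondrial ribosomal proteins with other symbols, Ptcd3 (a small subunit protein) was lower, from 32.9 ± 2.85 FPKM in sham to 26.0 ± 2.72 in nAAC mice (log2 FC -0.33, limma adjusted p = 0.041), and 0 were higher. Of 25 assembly factors tested among 26 listed, Mpv17l2 was higher (log2 FC 0.56, limma adjusted p = 0.033) and 0 were lower. Of 17 translation factors, Gfm2, which helps recycle the ribosome, was higher (log2 FC 0.28, limma adjusted p = 0.042) and 0 were lower. Of 17 mitochondrial aminoacyl-tRNA synthetases, which load tRNAs, 0 passed in either direction. The smallest p among them was that of Aars2, with a log2 FC of 0.36 (limma adjusted p = 0.051). Of 21 genes of mitochondrial transcription and RNA handling, Elac2 (tRNA processing) was higher (log2 FC 0.36, limma adjusted p = 0.032) and Lrpprc, which stabilises mitochondrial mRNAs, was lower (log2 FC -0.30, limma adjusted p = 0.049). Median log2 FCs in these 5 lists ran from -0.04 to 0.19, beside 0.22 for all genes. Leaving out sham replicate 4, they ran from -0.02 to 0.40, beside 0.24, the highest being that of the proteins with other symbols. The counts higher were then 1 of 5, 6 of 25, 3 of 17, 2 of 17 and 1 of 21 in the order given, beside 33.2% of all genes, and the counts lower 1, 0, 0, 0 and 2, beside 5.17%.

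The RNA partners of these proteins were lower. The 12S rRNA of the small subunit, mt-Rnr1, fell from 2169 ± 338 FPKM in sham to 1146 ± 286 in nAAC mice (SD, n = 5 each), and the groups did not overlap (log2 FC -0.94, limma adjusted p = 0.0037). The 16S rRNA of the large subunit, mt-Rnr2, fell from 2797 ± 553 to 1662 ± 320 FPKM, and here the groups overlapped (log2 FC -0.75, limma adjusted p = 0.0099). Both were thus called lower, beside 4.6% of all genes. They kept this call without sham replicate 4, with log2 FCs of -0.97 and -0.84. Whether the libraries were made by poly(A) selection or by rRNA depletion is not given in the sources used here. Of the 13 mRNAs of the mitochondrial genome, 0 passed the test in either direction, and all 13 log2 FCs were below 0, with a median of -0.40. The count lower was 6 of the 13 (46.2%) without sham replicate 4, beside 5.17% of all genes.

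Beside the 2 gene families nearest to them, the members held a middle place. Of 76 cytosolic ribosomal proteins, 4 were higher and 0 lower, with a median log2 FC of 0.37, beside 27.1% and 4.6% of all genes. Leaving out sham replicate 4 gave 44 higher and 0 lower (median 0.54), beside 33.2% and 5.17%, and after median-ratio scaling 1 was higher and 1 lower (median 0.09), beside 13.2% and 12.1%. Rpl3, the cytosolic counterpart of Mrpl3, was 135 ± 7.16 FPKM in nAAC and 69.6 ± 16.1 in sham mice (log2 FC 0.97, limma adjusted p = 0.00042). Of 81 nuclear-encoded subunits of oxidative phosphorylation tested, 1 was higher and 7 lower, with a median log2 FC of -0.23. The counts were 3 higher and 7 lower without sham replicate 4 (median -0.04), and after median-ratio scaling 0 were higher and 36 lower (median -0.51). Among them, Ndufs1 of complex I was 148 ± 11.7 FPKM in nAAC and 211 ± 16.0 in sham mice (log2 FC -0.51, limma adjusted p = 0.0061). The members' median of 0.12 lay between those of both families, as it did at 0.26 without sham replicate 4 and at -0.14 after median-ratio scaling. The difference between families was not tested.

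**Figure D5:**
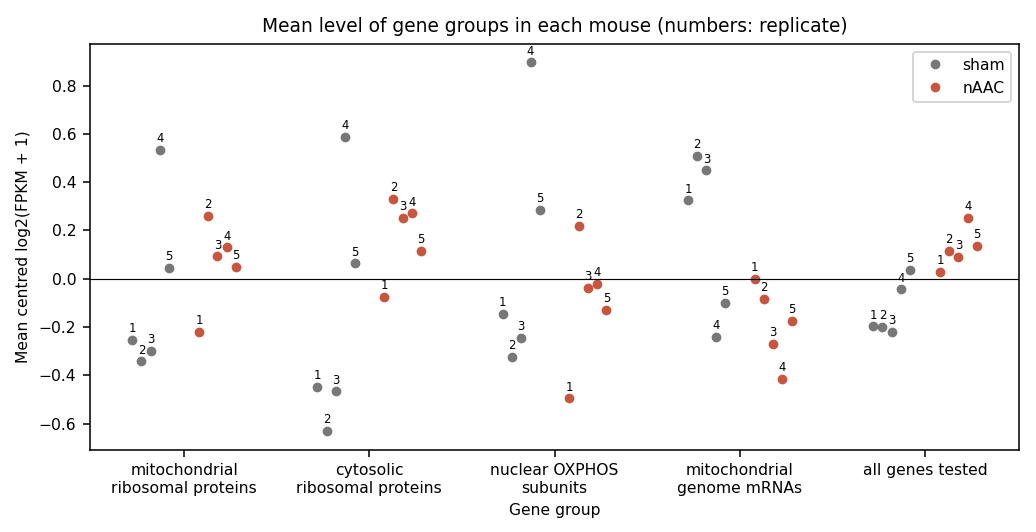
Mean of the centred log2(FPKM + 1) values of each gene group (vertical axis) in each mouse, sham in grey and nAAC in red, numbered by replicate. In the mitochondrial ribosomal proteins the nAAC mice lie between -0.22 and 0.26 and the sham mice between -0.34 and 0.53, with sham replicate 4 at the top, as it also is in the cytosolic ribosomal proteins and the nuclear OXPHOS (oxidative phosphorylation) subunits.

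Some markers of cell types of the LV also differed between the groups. In bulk tissue, fewer cells of a type and less RNA per cell cannot be told apart. The counts that follow stand beside 27.1% of all genes higher and 4.6% lower. Among these lists, only fibroblast and mural markers exceeded the share higher, and only cardiomyocyte markers the share lower. Of 10 fibroblast markers, 7 were higher and 0 lower, and their summed level was 1111 to 1764 FPKM in nAAC against 728 to 955 in sham mice. Of 12 cardiomyocyte markers, 2 were higher and 3 lower, with a summed level of 14190 to 22470 FPKM in nAAC and 17210 to 32210 in sham mice, where replicate 4 was the highest. Mural cell markers gave 4 of 7 higher, with a summed level of 289 to 420 FPKM against 198 to 332. Macrophage and leukocyte markers gave 2 of 8 higher (140 to 279 FPKM against 92.7 to 201) and endothelial markers 1 of 8 (447 to 857 FPKM against 509 to 848), with 0 lower in these 3 lists. Erythroid markers gave 0 of 5 in either direction. Of 4 atrial markers, 1 was higher (Nppa, also a stress gene of the ventricle) and 0 lower, and all 4 log2 FCs were above 0. Mean FPKM in nAAC and sham mice was 29.5 and 7.68 for Myl7, 43.2 and 6.84 for Myl4, and 6.1 and 1.4 for Sln. The nAAC mice were uneven here. The mean centred log2 value of the list was 2.66 and 3.37 in nAAC replicates 2 and 3, 1.03 in replicate 4, and -0.56 and -0.77 in replicates 1 and 5. Sln was listed at 0 in 1 library. No other marker was at 0 in any library. Xist was above 1 FPKM in 4 nAAC and 2 sham mice. With Xist as a covariate, 0 members were higher and Mrps35 was still lower. Shares of all genes with that covariate are not given. The part of cell types and of sex in the members' values was not tested further.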

How the data were processed

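LV RNA of 5 nAAC and 5 sham mice, 1 library per mouse, was measured by RNA-seq. The authors deposited 1 gene table per mouse on mm10, with read coverage per base (a signal), FPKM and TPM, and no counts. The layout resembles StringTie output, and the aligner, the tool and strand use are not given in the sources used here. Gene coordinates matched GENCODE M21 for 99.35% of shared genes, which gave transcript length and GC content. Rows sharing a gene ID were summed. Depth was estimated from the ratio of FPKM to coverage. The number of fragments per gene is unknown, so precision rests on the spread between mice.

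FPKM was tested as log2(FPKM + 1) for 11867 genes with a mean of at least 1, by limma 3.58.1 (R 4.3.3) with trend, without covariates, and checked on simulated data. Single genes also had two-sided exact permutation tests. Fold changes on this scale understate those of low genes. Values per mouse, ranges or means with SD were given for members called and for the highest, lowest, cardiomyopathy-linked, S18 paralogue, stalk and anchor genes. Members and lists were chosen with earlier results of these data known. There were 21 alternatives, 2 of them added after seeing the data. Figures used Python 3.11.15 and matplotlib 3.10.9.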

Additional observations from a re-analysis of the deposited data

Results flagged for a closer look

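In the 46 groups of 5 log2 values examined, 1 mouse lay far from the others in 3, where chance alone gives about 2.3. In Mrpl42, nAAC replicate 1 was the lowest, with a gap of 0.757 of the group's range to the next mouse. In Mrpl3, nAAC replicate 1 was the lowest (0.752), and in Mrpl45, sham replicate 4 was the highest (0.762).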

How the results depend on the processing

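All values here are from limma on the members. Shares of all genes called appear in the Results for all 10 mice, without sham replicate 4, with median-ratio scaling and with trends removed. In the other settings they are not given, so those counts have no background to be read against. With TPM the members' median log2 FC was 0.29. Once the median of all genes was subtracted it was -0.092, beside -0.10 in the main test. Beside the 4 genes higher, 1 lower and 1 above the fold threshold on all 10 mice, the counts higher, lower and above it were 0, 9 and 0 with median-ratio scaling, 1, 9 and 0 with upper-quartile scaling, 14, 0 and 2 with TPM, and 2, 10 and 0 with GC content and length trends removed. With Xist as covariate they were 0, 1 and 0, without a filter on low values 3, 2 and 0, and with FPKM rescaled without the mitochondrial genome 5, 3 and 1. Leaving out 1 mouse at a time gave 1 to 22 higher, 1 to 2 lower and 0 to 2 above the fold threshold, the 22 and the 2 above the fold threshold being without sham replicate 4. The count higher was 1 without any of nAAC replicates 2 to 5 or sham replicates 1 to 3, and the count lower was 2 without nAAC replicate 5 or sham replicate 2. Without sham replicate 4, median-ratio scaling gave 5, 9 and 1, and removal of trends 6, 8 and 0, both added after seeing the data. A pseudocount of 0.1 changed none of the 3 counts. Except where fewer samples or other genes entered by construction, the cause was not tested.

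The 5 genes called kept their direction in all 21 alternatives, and the call was kept in 20 for Mrps35, 19 for Mrps18b, 10 for Mrpl54, 8 for Mrps34 and 6 for Mrps2. The members' median log2 FC ran from -0.14 to 0.29 and, minus that of all genes, from -0.16 to 0.09. Replicate numbers did not pair the mice, with correlations of deviations from -0.32 to 0.19. The replicate block gave 3 higher, 1 lower and 1 above the fold threshold, and Mrps2 then had an adjusted p of 0.073.

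Genes that did not pass the test and lay near 0 changed sign. With median-ratio scaling the log2 FC was -0.16 in Mrpl30, -0.044 in Mrpl3, -0.16 in Mrpl44, -0.23 in Mrps22, -0.084 in Mrpl10, -0.099 in Mrpl11 and -0.12 in Mrpl45. With upper-quartile scaling these were -0.15, -0.032, -0.15, -0.21, -0.071, -0.087 and -0.10. With trends removed it was -0.15 in Mrpl44, -0.19 in Mrps22, -0.090 in Mrpl10, -0.073 in Mrpl11, -0.050 in Mrpl12 and -0.097 in Mrpl45. With TPM it was 0.14 in Mrpl33, 0.10 in Mrps25 and 0.10 in Mrps18c, and with Xist as covariate 0.21 in Mrpl33 and 0.061 in Mrps25. Leaving out 1 mouse gave -0.14 to 0.043 in Mrpl33, -0.13 to 0.067 in Mrps25, -0.046 to 0.13 in Mrps22 and -0.14 to 0.038 in Mrps18c. Without sham replicate 4 and with median-ratio scaling it was -0.033 in Mrpl30, -0.041 in Mrpl3, -0.094 in Mrpl44, -0.14 in Mrps22, -0.014 in Mrpl10 and -0.022 in Mrpl45, and with trends removed -0.16 in Mrpl44, -0.096 in Mrps22, -0.087 in Mrpl10 and -0.029 in Mrpl45.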
